A study of Rattus norvegicus with 6 samples.

Results

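The genes of the cyclic AMP (cAMP) signalling machinery were examined in rat Schwann cells, the glia that wrap peripheral axons, after stimulation with soluble neuregulin 1 (NRG1β1, from here on NRG1). They were chosen by symbol alone: adenylyl cyclases (Adcy), phosphodiesterases (Pde), subunits of protein kinase A (PKA; Prkac and Prkar), A-kinase anchoring proteins (Akap), the CREB group of transcription factors and partners (Creb, Crem, Crtc) and guanine nucleotide exchange factors for Rap (Rapgef). The rule matched 72 of the 17327 genes in the count files. Of these, 52 passed the filter on low counts and were tested, and 20 did not pass.

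Primary Schwann cells from sciatic nerves of adult Wistar rats were starved for 18 h in medium with 2% FBS and 10 µM forskolin, and then kept for 6 h in the same medium with 10 nM NRG1 (NRG1 samples) or with only the buffer of the ligand (mock samples). All 6 samples, 3 mock and 3 NRG1, therefore contained forskolin, so that its own effect was not measured and each comparison is of NRG1 on top of it. The 3 mock and 3 NRG1 libraries came from 3 independent experiments, here called cultures 1, 2 and 3, and samples with the same number form a pair. Before starvation all cultures had grown in medium with forskolin and a neuregulin (named glial growth factor in the labels and NRG1β1 in the methods of the study), and the labels give no genetic change.

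Adenylyl cyclases make cAMP from ATP, and forskolin activates most of the membrane-bound ones directly. cAMP binds the regulatory subunits of PKA and so frees its catalytic subunits. AKAPs bind the regulatory subunits and so hold PKA at defined sites in the cell. PKA phosphorylates CREB, whose coactivators are the Crtc proteins and Crebbp, and phosphodiesterases end the signal. In Schwann cells cAMP is known as a signal that promotes myelination, and forskolin is widely used to raise it in culture.

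Counts on genes ranged from 6821590 to 15475018 per sample. Values are given as CPM (the usual count-per-10⁶ scale, taken over the tested genes, with TMM factors between 0.987 and 1.02), and a count of 3, taken as the floor, corresponded to between 0.194 and 0.444 CPM. Culture 1 stood apart from the others. The fibroblast marker Pdgfra was at 870.1 and 827.2 CPM in its mock and NRG1 sample and at no more than 1.61 CPM in the 4 others, and Dcn and Lum had counts in culture 1 and none in the others. In culture 1 the summed level of the 6 Schwann cell markers was 5960 and 4740 CPM, against 12500 to 15900 CPM in the others, while that of the 6 fibroblast markers was 31000 and 34600 CPM against 13600 to 21900 CPM, most of it Col1a1 (Col1a2 had at most 2 counts in any sample). The macrophage list (5 genes) summed to between 3.23 and 10.3 CPM and the endothelial list (4 genes) to between 6 and 14.9 CPM, with Ptprc, Pecam1 and Cdh5 at 0. Of the fibroblast, macrophage and endothelial markers only 3, 1 and 1 could be tested between NRG1 and mock, and none passed at an adjusted p of 0.01. Their log2 fold changes in the edgeR fit ran from -0.62 (Tek, adjusted p = 0.0281) to 0.29 (Cd68, adjusted p = 0.53). All 6 Schwann cell markers were tested and 2 fell, among them S100b, against 5.51% of all genes tested. Fewer cells of a type and less RNA per cell cannot be told apart in such samples.

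With NRG1, 3 of the 52 tested genes rose and 6 fell at an adjusted p of at most 0.01. The comparison used edgeR's quasi-likelihood test with the replicate number as a block. Prkar2a, Akap1 and Akap12 rose, and Pde6d, Pde7b, Pde3a, Akap5, Akap8l and Crebrf fell. The share that rose was 5.77%, against 6.31% of all 9740 genes tested, and the share that fell was 11.5%, against 5.51% of all genes. The threshold of the study's methods adds an absolute log2 fold change over 1. In the edgeR fit a single one (Akap5) met it, against 3.47% of all genes. In DESeq2 with the block, the tool and pairing of the study, Pde3a met it as well (-1.055, adjusted p = 0.00257). The median log2 fold change was -0.13 over the 52 genes and -0.03 over all genes tested. Within the pairs, 21 of the 52 were lower with NRG1 in all 3 and 6 were higher in all 3, so that 27 moved the same way throughout, against 56% of all genes. In 9 of the 52 the CPM of the groups did not overlap, against 20.1% of all genes. In an edgeR fit without the block none of all 9740 genes passed, and so no cAMP gene did. The smallest adjusted p of the cAMP genes in that fit, 0.139, was also the smallest of all genes. DESeq2 without the block gave 2 higher and 2 lower cAMP genes, against 115 and 63 of all 12827 genes in that fit.

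**Figure D1:**
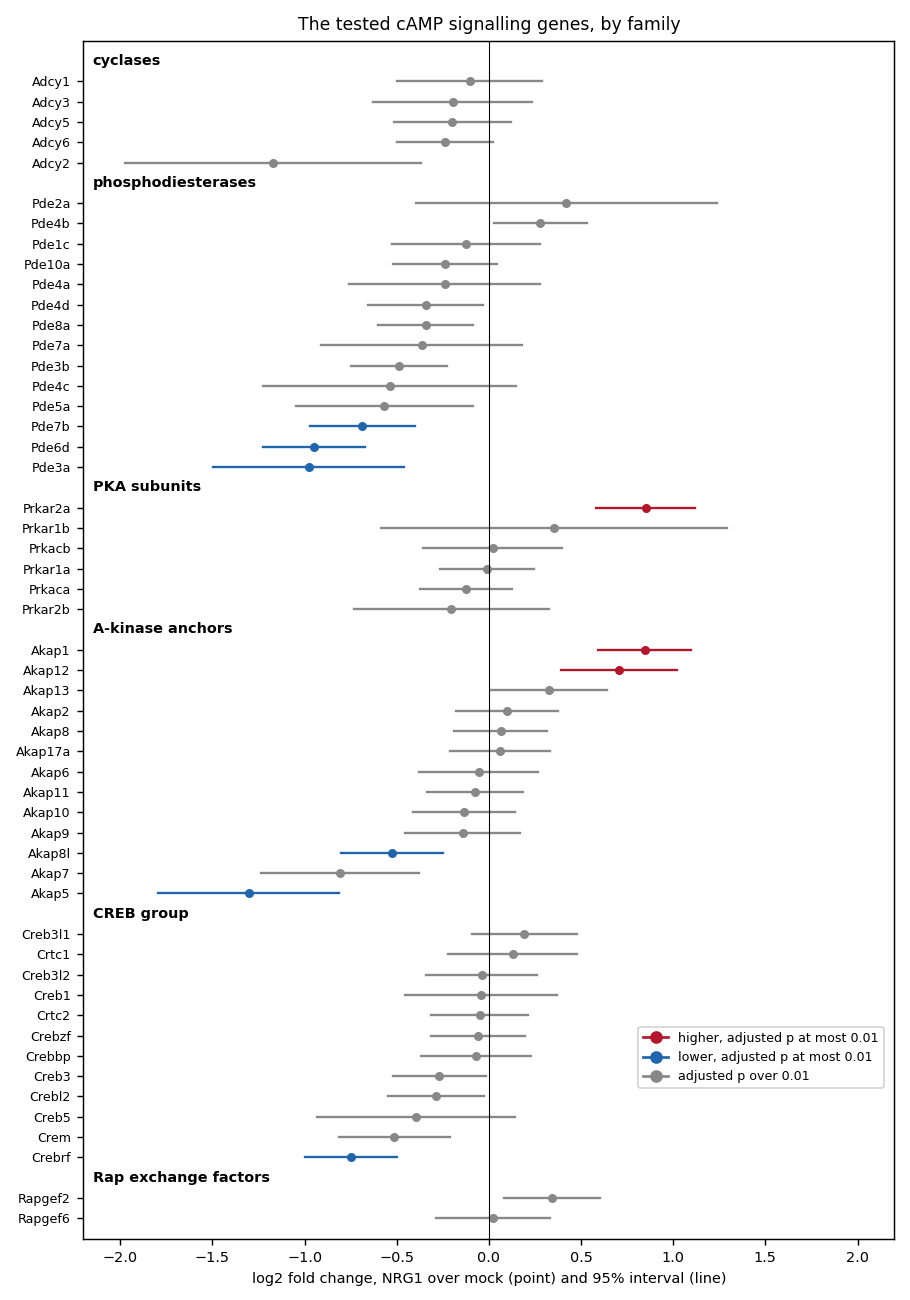
Log2 fold change, NRG1 over mock, of the 52 tested cAMP signalling genes (points) with 95% intervals (lines, not adjusted for the number of genes), grouped by family. The 3 genes that rose are in red, the 6 that fell in blue, and the 43 with an adjusted p over 0.01 in grey. Of the 14 genes with a Pde symbol, which include Pde6d, 12 lie below 0, where the median of all genes tested was -0.03.

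Among the 9 adenylyl cyclases 5 were tested and none passed. All 5 fitted log2 fold changes were negative, from -1.17 to -0.11, with a median of -0.20, but those of Adcy1 and Adcy5 were positive without replicate 2. Adcy6 was at 225.7, 243.4 and 262.9 CPM in mock samples 1, 2 and 3 and at 209.2, 179.1 and 235.2 CPM in NRG1 samples 1, 2 and 3. The groups overlapped, and the log2 fold change was -0.24 (95% interval -0.50 to 0.02, adjusted p = 0.178). Adcy5 had -0.20 (interval -0.52 to 0.12, adjusted p = 0.361) and Adcy1, a calmodulin-stimulated cyclase, -0.11 (interval -0.50 to 0.29, adjusted p = 0.719).

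Adcy2 was counted at low levels, 1.07, 8.88 and 4.81 CPM in mock samples 1, 2 and 3 and 1.87, 2.36 and 1.87 CPM in NRG1 samples 1, 2 and 3. It was lower with NRG1 in cultures 2 and 3 and higher in culture 1, there on 8 counts in mock and 14 with NRG1. Culture 1 was the one with high Pdgfra, Dcn and Lum. Its log2 fold change was -1.17 (SE 0.38, adjusted p = 0.0362), which did not pass, and without replicate 1 it was -1.61 (adjusted p = 4.44e-05). Whether the cells behind these fibroblast markers have a part in the Adcy2 difference was not tested.

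Of the 23 genes with a Pde symbol 14 were tested, of which 3 fell and none rose, against 5.51% and 6.31% of all genes tested. The log2 fold changes had a median of -0.35 and ran from -0.98 to 0.42, and 10 of the 14 were lower in all 3 pairs, where 56% of all genes tested moved the same way in all pairs, up or down. Pde6d had the smallest adjusted p of all cAMP genes. Although it carries the name of the photoreceptor cGMP phosphodiesterase, its product is not an enzyme but a carrier of prenylated proteins such as Ras family members. It was at 66.3, 58.5 and 60.6 CPM in mock samples 1, 2 and 3 and at 30.9, 34.8 and 30.3 CPM in NRG1 samples 1, 2 and 3. All 3 NRG1 samples lay below all 3 mock samples. Pde6d fell by 0.95 on the log2 scale (SE 0.13, adjusted p = 0.000183), a level 1.93 times lower than in mock cells, and the call held without any one of the replicates.

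Pde7b, a high-affinity phosphodiesterase specific for cAMP, was at 40.5, 70.9 and 67.1 CPM in mock samples 1, 2 and 3 and at 27.9, 36.8 and 45.1 CPM in NRG1 samples 1, 2 and 3. The groups overlapped because culture 1 started lower, while each pair fell. The log2 fold change was -0.69 (SE 0.13, adjusted p = 0.00215), and the call held without any one of the replicates. The related Pde7a had -0.37 (interval -0.91 to 0.18, adjusted p = 0.327).

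Pde3a and Pde3b encode the phosphodiesterases that hydrolyse cAMP and are inhibited by cGMP. Pde3a was at 65.9, 24.1 and 11.4 CPM in mock samples 1, 2 and 3 and at 58.0, 6.41 and 4.78 CPM in NRG1 samples 1, 2 and 3. Its level in culture 1 was above that in any other sample under both conditions, and the pairs of cultures 2 and 3 fell by 1.88 and 1.22 on the log2 scale against 0.18 in culture 1. Over all pairs Pde3a fell by 0.98 on the log2 scale (SE 0.24, adjusted p = 0.00951). It was -1.57 without replicate 1 (adjusted p = 5e-08), and -0.57 without replicate 2 (adjusted p = 0.0561) and -0.85 without replicate 3 (adjusted p = 0.0211), where the call was lost. The share of the fibroblast markers of culture 1 in these differences was not tested.

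Pde3b was at 292.4, 366.2 and 376.6 CPM in mock samples 1, 2 and 3 and at 193.2, 250.2 and 302.2 CPM in NRG1 samples 1, 2 and 3. It was lower with NRG1 in all 3 pairs, while the groups overlapped. Its log2 fold change of -0.49 (SE 0.12, adjusted p = 0.0102) lay just outside the threshold, and DESeq2 with the block gave -0.47 (adjusted p = 0.00361). In GRCr8 Pde3b overlaps Cyp2r1, and reads that fit both genes may not have been counted for either.

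The Pde4 enzymes, specific for cAMP and the targets of rolipram, had fitted values of both signs. Pde4b was at 203.6, 88.5 and 100.8 CPM in mock samples 1, 2 and 3 and at 225.2, 112.3 and 128.7 CPM in NRG1 samples 1, 2 and 3, higher with NRG1 in each pair. Its log2 fold change of 0.28 (interval 0.03 to 0.53, adjusted p = 0.1) did not pass. Pde4d had -0.34 (interval -0.66 to -0.03, adjusted p = 0.103), Pde4a -0.24 (adjusted p = 0.515) and Pde4c, counted at no more than 3.15 CPM, -0.54 (adjusted p = 0.247). Pde8a, another enzyme specific for cAMP, had -0.34 (adjusted p = 0.0516), and the cGMP-specific Pde5a had -0.57 (adjusted p = 0.0814).

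**Figure D2:**
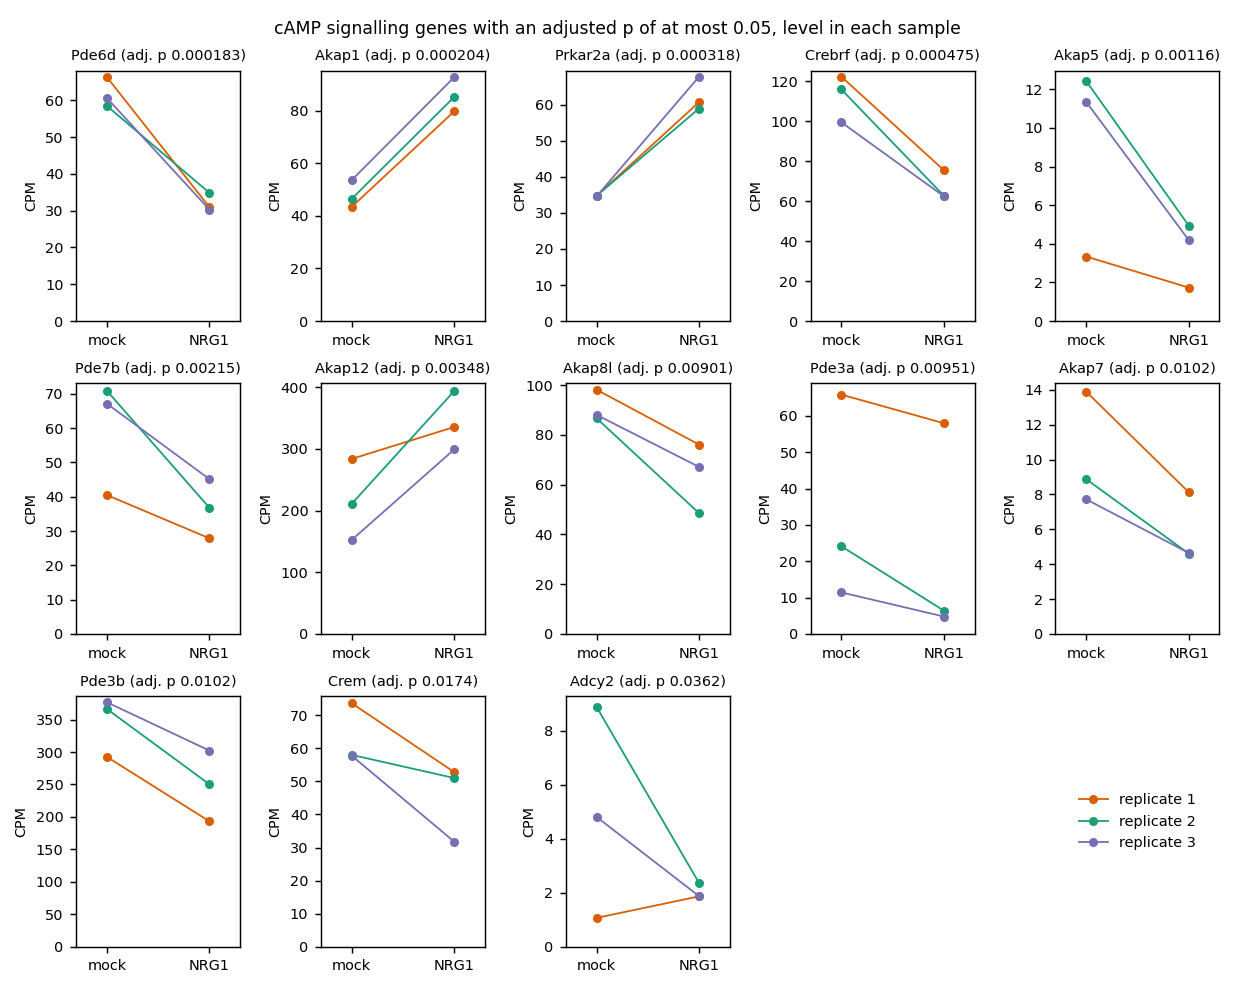
CPM in mock and NRG1 samples of the 13 cAMP signalling genes with an adjusted p of at most 0.05, on axes from 0, with lines joining the samples of a pair. Prkar2a was nearly level in mock samples (34.6 to 34.8 CPM) and at 59.0 to 67.9 CPM with NRG1, and Pde3a of replicate 1 lies far above that of the others.

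All 6 PKA subunits were tested, of which 1 rose (16.7%, against 6.31% of all genes tested) and none fell. This was Prkar2a, which encodes the regulatory subunit RIIα. It was at 34.7, 34.8 and 34.6 CPM in mock samples 1, 2 and 3 and at 60.8, 59.0 and 67.9 CPM in NRG1 samples 1, 2 and 3. The groups were far apart, although the cultures differed in their markers. Prkar2a rose by 0.85 on the log2 scale (SE 0.13, adjusted p = 0.000318), to 1.80 times the mock level, and the call held without any one of the replicates.

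Prkar1a, which encodes the other widely expressed regulatory subunit RIα, was at 462.4, 570.6 and 567.8 CPM in mock samples 1, 2 and 3 and at 457.3, 562.8 and 568.7 CPM in NRG1 samples 1, 2 and 3. The log2 fold change was -0.01 with an interval from -0.27 to 0.25 (adjusted p = 0.957), and its sign turned under other scalings. The catalytic subunit gene Prkaca was at 55.3, 66.9 and 78.0 CPM in mock and 51.3, 59.9 and 72.4 CPM in NRG1 samples 1, 2 and 3, with a log2 fold change of -0.13 (interval -0.38 to 0.13, adjusted p = 0.481). Prkacb had 0.02 (interval -0.36 to 0.40, adjusted p = 0.946). Prkar1b, with at most 20 counts in any sample, had 0.36 (interval -0.58 to 1.29, adjusted p = 0.599).

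Prkar2b, which encodes RIIβ, differed between the cultures more than between the conditions. It was at 114.2, 2.96 and 3.31 CPM in mock samples 1, 2 and 3 and at 65.1, 3.37 and 5.68 CPM in NRG1 samples 1, 2 and 3. The pair of culture 1 was lower with NRG1, with a log2 ratio of -0.81, and those of cultures 2 and 3 were higher, with 0.18 and 0.74. The fitted log2 fold change was -0.20 (interval -0.73 to 0.33, adjusted p = 0.591).

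Of the 16 A-kinase anchors 13 were tested, of which 2 rose and 2 fell. Each share was 15.4%, against 6.31% and 5.51% of all genes tested. The median log2 fold change was -0.06. Akap1 tethers PKA to the outer membrane of mitochondria and also binds RNA. It was at 43.4, 46.5 and 53.6 CPM in mock samples 1, 2 and 3 and at 79.7, 85.2 and 92.7 CPM in NRG1 samples 1, 2 and 3. No NRG1 sample overlapped a mock sample. Akap1 rose by 0.85 on the log2 scale (SE 0.12, adjusted p = 0.000204), to 1.80 times the mock level, and the call held without any one of the replicates.

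Akap12 (gravin) is a scaffold at the plasma membrane that binds PKA and protein kinase C. It was at 283.7, 211.0 and 152.4 CPM in mock samples 1, 2 and 3 and at 335.4, 393.8 and 299.1 CPM in NRG1 samples 1, 2 and 3. The groups did not overlap, and the log2 ratio was 0.24 in culture 1 and 0.90 and 0.97 in cultures 2 and 3. Akap12 rose by 0.71 on the log2 scale (SE 0.15, adjusted p = 0.00348). Without replicate 2 the adjusted p was 0.015 and without replicate 3 it was 0.0359.

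Akap5, a neuronal scaffold that joins PKA, calcineurin and membrane channels and receptors, was at 3.34, 12.4 and 11.4 CPM in mock samples 1, 2 and 3 and at 1.73, 4.95 and 4.2 CPM in NRG1 samples 1, 2 and 3. The level was lowest in culture 1 under both conditions, and all 3 pairs fell. The log2 fold change of -1.30 (SE 0.23, adjusted p = 0.00116) was the largest of the cAMP genes tested, on counts between 13 and 144 per sample. Without replicate 3 the adjusted p was 0.0294.

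Akap8l, a nuclear protein related to the chromatin-bound anchor Akap8, was at 98.2, 86.7 and 88.1 CPM in mock samples 1, 2 and 3 and at 76.1, 48.6 and 67.1 CPM in NRG1 samples 1, 2 and 3. All NRG1 samples lay below all mock samples, and Akap8l fell by 0.53 on the log2 scale (SE 0.13, adjusted p = 0.00901). The call was near the threshold and was lost without replicate 2 (-0.38, adjusted p = 0.0333), without replicate 3 (adjusted p = 0.0301) and in DESeq2 with the block (adjusted p = 0.0161). Akap8 itself had a log2 fold change of 0.06 (interval -0.19 to 0.32, adjusted p = 0.74).

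Akap7 was at 13.9, 8.88 and 7.72 CPM in mock samples 1, 2 and 3 and at 8.13, 4.61 and 4.65 CPM in NRG1 samples 1, 2 and 3. It was lower in every pair, and its log2 fold change of -0.81 (SE 0.20, adjusted p = 0.0102) lay just outside the threshold. Akap13, a large scaffold protein, was counted at 230.6, 402.5 and 320.7 CPM in mock and 291.8, 379.6 and 525.5 CPM in NRG1 samples 1, 2 and 3. The pair of culture 2 did not follow the other pairs, and the log2 fold change of 0.32 (interval 0.01 to 0.64, adjusted p = 0.127) did not pass. The other 7 anchors tested (Akap2, Akap6, Akap8, Akap9, Akap10, Akap11 and Akap17a) had adjusted p-values of at least 0.487.

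In the CREB group 12 of 14 genes were tested. A single one, Crebrf, fell (8.33%, against 5.51% of all genes tested) and none rose (against 6.31%). The median log2 fold change was -0.07. Crebrf encodes a regulator that promotes the degradation of the Creb3 protein and is not itself a target of PKA in the textbook pathway. It was at 122.3, 115.9 and 99.4 CPM in mock samples 1, 2 and 3 and at 75.5, 62.7 and 62.4 CPM in NRG1 samples 1, 2 and 3. The groups did not overlap. Crebrf fell by 0.75 on the log2 scale (SE 0.12, adjusted p = 0.000475), and the call held without any one of the replicates.

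Crem encodes activators and repressors that bind the same DNA element as CREB, among them the inducible repressor ICER. Counts per gene do not separate these forms. Crem was at 73.6, 58.0 and 57.8 CPM in mock samples 1, 2 and 3 and at 52.8, 51.0 and 31.8 CPM in NRG1 samples 1, 2 and 3. Each NRG1 sample lay below every mock sample, and the pairs differed by 0.48, 0.18 and 0.86 on the log2 scale. The log2 fold change of -0.51 (SE 0.14, adjusted p = 0.0174) did not pass at 0.01. It was -0.67 without replicate 2 (adjusted p = 0.00266) and -0.31 without replicate 3 (adjusted p = 0.296).

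Creb1, which encodes CREB itself, was at 10.0, 10.4 and 7.33 CPM in mock samples 1, 2 and 3 and at 9.07, 9.10 and 8.26 CPM in NRG1 samples 1, 2 and 3. Its log2 fold change was -0.04 with an interval from -0.46 to 0.37 (adjusted p = 0.899). The coactivator genes had 0.13 (Crtc1, interval -0.22 to 0.48), -0.05 (Crtc2, interval -0.31 to 0.21) and -0.07 (Crebbp, interval -0.37 to 0.23). The Creb3 subfamily encodes membrane-bound factors of the secretory pathway that are not driven by cAMP. Creb3l2 had a log2 fold change of -0.04 (interval -0.34 to 0.26, adjusted p = 0.869), Creb3 of -0.27 (adjusted p = 0.114) and Creb3l1 of 0.19 (adjusted p = 0.327).

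The DNA element bound by CREB and Crem is TGACGTCA, and its shorter form is TGACG. Promoter windows from RefSeq (assembly GRCr8, 250 bases before to 50 after the annotated start) were found for 58 of the 72 genes and searched on both strands. A single window was used per gene, so that other starts of a gene and bases outside the window were not searched. The full element was in 1 of the 58 windows (1.72%, Akap17a), against 1.91% of all 27457 windows and 2.74% of the 11669 windows of genes in the files. The shorter form, which the full element contains, was in 17 (29.3%), against 22.0% of all windows and 28.2% of those of genes in the files. Of the 9 genes that changed, 6 had a window, and 2 of these, Akap8l and Crebrf, held the shorter form. Those of Akap1, Akap12, Akap5 and Pde3a did not. Prkar2a, Pde6d, Pde7b and Pde3b had no window in the table. The windows of the 3 genes with an adjusted p of at most 0.05 that hold TGACG are printed, 5′ to 3′ along the gene, with the element in capitals (CGTCA where it lies on the other strand).
Crem, GRCr8 chr17:58933816-58934115, plus strand: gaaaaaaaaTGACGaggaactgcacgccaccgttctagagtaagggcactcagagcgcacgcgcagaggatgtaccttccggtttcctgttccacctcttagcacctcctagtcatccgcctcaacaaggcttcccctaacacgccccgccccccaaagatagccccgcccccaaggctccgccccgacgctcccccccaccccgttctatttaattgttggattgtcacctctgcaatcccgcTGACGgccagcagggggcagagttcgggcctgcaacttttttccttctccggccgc
Crebrf, GRCr8 chr10:16966381-16966680, minus strand: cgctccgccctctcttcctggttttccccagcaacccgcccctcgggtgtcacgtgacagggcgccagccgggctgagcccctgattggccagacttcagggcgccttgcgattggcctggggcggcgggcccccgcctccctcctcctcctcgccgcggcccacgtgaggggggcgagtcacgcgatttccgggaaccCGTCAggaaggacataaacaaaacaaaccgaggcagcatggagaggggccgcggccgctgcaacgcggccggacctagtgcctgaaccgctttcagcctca
Akap8l, GRCr8 chr7:12012762-12013061, minus strand: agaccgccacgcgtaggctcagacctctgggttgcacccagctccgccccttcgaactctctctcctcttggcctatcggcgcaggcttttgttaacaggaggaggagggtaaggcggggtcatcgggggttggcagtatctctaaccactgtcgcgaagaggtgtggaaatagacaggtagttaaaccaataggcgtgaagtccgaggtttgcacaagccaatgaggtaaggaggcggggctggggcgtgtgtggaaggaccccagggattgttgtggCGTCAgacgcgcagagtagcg
Crem held the element 241 and 6 bases before the annotated start, Crebrf 51 bases before it, and Akap8l 29 bases after it. A match of letters is no evidence of binding in these cells.

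Of the 4 Rap exchange factors 2 were tested. Rapgef2 was at 59.1, 63.9 and 53.9 CPM in mock samples 1, 2 and 3 and at 76.1, 71.7 and 75.2 CPM in NRG1 samples 1, 2 and 3. The groups did not overlap, and the log2 fold change of 0.34 (interval 0.08 to 0.60, adjusted p = 0.0572) did not pass. Rapgef6 had 0.02 (interval -0.29 to 0.33, adjusted p = 0.932). Rapgef3, which encodes the cAMP sensor EPAC1, had 6, 0 and 0 counts in mock and 9, 0 and 2 counts in NRG1 samples 1, 2 and 3 and was not tested. Rapgef4, the gene of EPAC2, was not analysed here.

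Taking the 43 tested genes that did not pass, 31 had negative and 12 positive log2 fold changes. For 37 of them the 95% interval lay within a log2 fold change of 1 in either direction, and for 19 within 0.5. For the 6 others a doubling or halving lay within the interval.

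Several cAMP genes were found mainly in culture 1. In 8 of the 66 genes with any count (12.1%), both samples of culture 1 had over 4 times the CPM of any other sample or of the floor, against 4.32% of all 13129 genes with a count, and none was lower by the same rule. They were Adcy3, Adcy4, Adcy7, Pde1a, Pde2a, Pde8b, Prkar2b and Rapgef5. Adcy7 had 292 and 309 counts in the mock and NRG1 sample of culture 1, and 0 and 3 in culture 2 and 1 and 14 in culture 3. Pde8b had 164 and 139 counts in culture 1, none in culture 2 and 0 and 2 in culture 3. Adcy4 had 53 and 70 counts in culture 1 and at most 1 in any other sample, and Rapgef5 had 24 and 16 against at most 1. Both conditions of culture 1 were thus high, and Pdgfra, Dcn and Lum were high in the same samples, so that culture and cell markers cannot be told apart in these levels.

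Pde2a, which cGMP stimulates, had 258 and 244 counts in the mock and NRG1 sample of culture 1, 0 and 3 in culture 2 and 2 and 24 in culture 3. The fitted log2 fold change of Pde2a was 0.42 (interval -0.40 to 1.24, adjusted p = 0.463). Adcy3 was at 37.4 and 31.3 CPM in the mock and NRG1 sample of culture 1 and between 2.13 and 2.37 CPM in the 4 others, with a log2 fold change of -0.20 (interval -0.63 to 0.24, adjusted p = 0.522). Without replicate 1, 3 cAMP genes rose and 7 fell, against 590 and 601 of all 9926 genes in that fit. The cAMP genes were the same 9 and Adcy2.

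**Figure D3:**
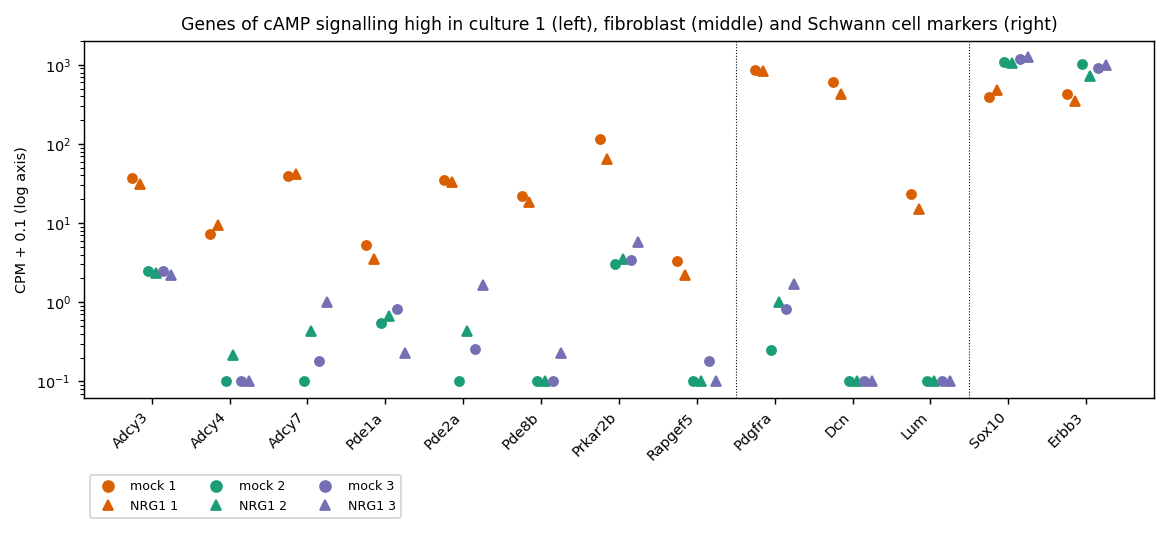
CPM plus 0.1, on a log axis, of the 8 cAMP signalling genes high in culture 1 (left), 3 fibroblast markers (middle) and 2 Schwann cell markers (right) in each of the 6 samples. Circles are mock and triangles NRG1 samples, coloured by replicate number. Adcy7, Pde8b, Dcn and Lum were high in both samples of culture 1 and at or near 0 in the others, and Sox10 and Erbb3 were lower in culture 1.

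Of the 20 genes not tested, 6 had no count in any sample, which allows a level of up to 0.194 to 0.444 CPM per sample. They were Akap4, an anchor of the sperm tail, Pde6b and Pde6h of photoreceptors, and Pde11a, Creb3l3 and Creb3l4. The other 14 were Adcy4, Adcy7, Adcy8, Adcy10, Akap3, Akap14, Pde1a, Pde1b, Pde6a, Pde6c, Pde8b, Pde9a, Rapgef3 and Rapgef5.

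The other genes of the pathway were taken from a list of 97 receptors, G proteins, PKA inhibitors, Rap regulators, CREB partners and CREB target genes. Of these, 93 were in the files and 57 were tested. With NRG1 3 rose and 9 fell, shares of 5.26% and 15.8% against the 6.31% and 5.51% of all genes tested, with a median log2 fold change of -0.13. Without the replicate block no gene of any kind passed in edgeR, and DESeq2 without the block gave 1 higher and 2 lower of these pathway genes.

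Among the 14 tested receptors and G proteins, Lpar1 fell (7.14%, against 5.51% of all genes tested) and none rose. Lpar1, a lysophosphatidic acid receptor that couples to the G proteins which inhibit adenylyl cyclase, was at 189.2, 174.2 and 178.4 CPM in mock samples 1, 2 and 3 and at 106.0, 81.1 and 90.3 CPM in NRG1 samples 1, 2 and 3. The groups were far apart, and the log2 fold change was -0.97 (SE 0.12, adjusted p = 7.05e-05). Gnas, which encodes the stimulatory G protein, had -0.04 (adjusted p = 0.837).

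Among the 12 tested PKA inhibitors, EPAC effectors and other cAMP-binding proteins, 2 rose (16.7%, against 6.31% of all genes tested). Both encode GTPase-activating proteins for Rap, the GTPase that EPAC switches on. Rap1gap was at 20.2, 51.4 and 65.4 CPM in mock samples 1, 2 and 3 and at 66.1, 100.9 and 138.2 CPM in NRG1 samples 1, 2 and 3. The groups did not overlap, and Rap1gap rose by 1.23 on the log2 scale (SE 0.15, adjusted p = 5.46e-05). Sipa1 was at 135.5, 396.4 and 398.0 CPM in mock and 238.0, 487.9 and 577.4 CPM in NRG1 samples 1, 2 and 3, and rose by 0.55 (SE 0.13, adjusted p = 0.00817). Without replicate 1 its adjusted p was 0.088 and without replicate 3 it was 0.0406. The PKA inhibitor genes Pkia and Pkig had 0.01 (adjusted p = 0.985) and 0.07 (adjusted p = 0.697).

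Of the 10 tested partners and regulators of CREB, Ppp3ca fell (10%, against 5.51% of all genes tested) and none rose. Ppp3ca encodes a catalytic subunit of calcineurin, a phosphatase that acts on Crtc proteins. It was at 136.3, 186.6 and 154.1 CPM in mock samples 1, 2 and 3 and at 79.5, 89.2 and 100.8 CPM in NRG1 samples 1, 2 and 3, without overlap, and its log2 fold change was -0.82 (SE 0.13, adjusted p = 0.000412). Ppp3cb, which encodes another catalytic subunit, had 0.15 (interval -0.10 to 0.41, adjusted p = 0.386).

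Of the 26 CREB target genes in the files 21 were tested, and 6 fell and 1 rose, against 5.51% and 6.31% of all genes tested. Their median log2 fold change was -0.32. Fos, an immediate early gene, was at 55.2, 145.3 and 116.8 CPM in mock samples 1, 2 and 3 and at 19.2, 48.3 and 35.8 CPM in NRG1 samples 1, 2 and 3. The groups did not overlap, and Fos fell by 1.61 on the log2 scale (SE 0.12, adjusted p = 2.21e-06). The nuclear receptor gene Nr4a2 was at 29.3, 47.2 and 28.3 CPM in mock and 18.4, 15.7 and 10.2 CPM in NRG1 samples 1, 2 and 3. It fell by 1.25 (SE 0.18, adjusted p = 0.000223).

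Rgs2, which limits signalling through G proteins, had a log2 fold change of -1.31 (adjusted p = 0.00109), Btg2 of -1.63 (adjusted p = 0.00192), the clock gene Per1 of -0.78 (adjusted p = 0.00531) and Egr1 of -1.13 (adjusted p = 0.00711). The pair of culture 1 differed least in all 4 of these genes, with log2 ratios of -0.59, -0.56, -0.30 and -0.03. Leaving out a replicate ended the calls of Btg2 (without replicate 3, adjusted p = 0.0225), Per1 (without replicate 2, 0.0174 as adjusted p) and Egr1 (without replicate 2 or 3, adjusted p = 0.0376 and 0.0353).

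Vgf, which encodes a secreted neuropeptide precursor, was the CREB target gene that rose. It had 3, 7 and 24 counts in mock samples 1, 2 and 3 and 32, 63 and 122 counts in NRG1 samples 1, 2 and 3, and its log2 fold change was 2.47 (SE 0.31, adjusted p = 9.29e-05). Its mock level lay near the floor, so the size of the change is imprecise. Of the targets that did not pass, Ier2 had a log2 fold change of 0.51 (adjusted p = 0.0146), Id1 of 0.77 (adjusted p = 0.0241), Nr4a1 of -0.37 (adjusted p = 0.0343), Nr4a3 of -0.32 (adjusted p = 0.183), Junb of -0.13 (adjusted p = 0.597) and Dusp1 of -0.03 (adjusted p = 0.899). Several of these genes are also targets of MAP kinase signalling, which NRG1 is known to activate. Whether that signalling had a part in these values was not tested.

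**Figure D4:**
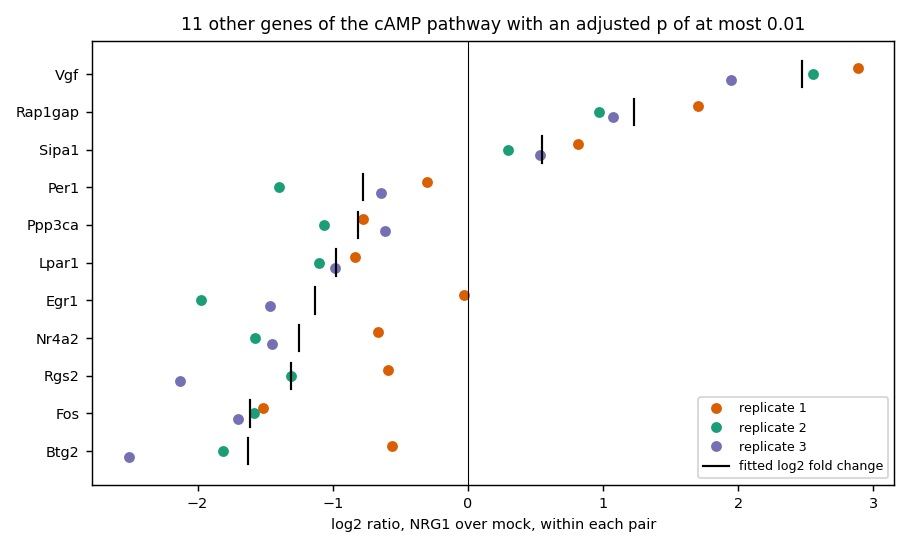
Log2 ratio, NRG1 over mock, within each of the 3 pairs (points) and the fitted log2 fold change (bars) of 11 of the 12 other genes of the cAMP pathway with an adjusted p of at most 0.01. The 3 points of each gene lie on the same side of 0, with Egr1 of replicate 1 at -0.03.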

How the data were processed

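RNA from 3 mock and 3 NRG1 samples of rat Schwann cells was sequenced after poly(A) selection (TruSeq RNA kit, NextSeq 500). Per the study's methods the authors aligned these to rn5 in TopHat v2.0.10 and summarised them by RefSeq gene using htseq. The deposited counts are not normalised. The strand setting is not given in the sources used here. Between 50.1% and 53% of the alignments were in the summary lines (outside genes, ambiguous or not unique) and stayed out of library sizes and tests. The files hold no coordinates or gene lengths, so levels are not compared between genes (mean CPM served only to choose genes to name). In the GRCr8 annotation the tested genes Pde3b, Adcy3, Adcy6, Creb3, Prkar1a and Prkar1b overlap another protein-coding gene of the files. Reads that fit both genes of such a pair may be among the ambiguous ones left out.

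Genes were filtered with filterByExpr (minimum count 10), which left 9740 and removed 7587. TMM normalisation and edgeR 4.0.16 (R 4.3.3, quasi-likelihood test, replicate number as a block, Benjamini-Hochberg adjustment over the 9740 genes) followed, and a gene was called at an adjusted p of at most 0.01. Standard errors were derived from the F statistic and the fold change, and intervals are at 95%. Ratios of pairs used log2 CPM (prior count 2). The 3 experiments were independent, and deviations of same-numbered samples from their group means correlated across genes with r of 0.91, 0.67 and 0.81, against -0.80 to 0.51 for different numbers. No 2 libraries agreed within sampling noise (chi-square per degree of freedom at least 22.9).

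Every gene with an adjusted p of at most 0.01 was named with its 6 values, those up to 0.05 with their fold change, and in each family the gene with the highest mean CPM, as well as Crem, Creb1, Rapgef3, Rapgef4, Prkaca and the tested cyclases. The genes, lists and families were chosen with earlier results of these data known. Other values given for genes that did not pass were chosen after they were seen. Alternatives were the fit without the block, DESeq2 1.42.0, RLE normalisation, other filters and thresholds, and leaving out each replicate. DESeq2 without the block and library sizes over all genes were added after seeing the data. The script was tested on simulated paired counts. Some items are not reported here.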

Additional observations from a re-analysis of the deposited data

How the results depend on the processing

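The main fit, with the replicate block, gave 3 cAMP signalling genes higher and 6 lower, and 3 and 9 of the other pathway genes. With no replicate block all 4 counts were 0, and none of all 9740 genes passed. DESeq2 with no replicate block gave 2 lower cAMP genes, and 1 higher and 2 lower of the other genes. Of all 12827 genes in that fit 115 were higher and 63 lower. With no filter on low counts, 10 cAMP genes were lower and 6 other genes higher, against 857 lower and 848 higher of all 13129 genes. At an adjusted p of at most 0.05 there were 10 lower cAMP genes and 7 higher other genes, against 11.7% and 11.5% of all genes tested. With an absolute log2 fold change over 1 in the main fit, 0 cAMP genes were higher and 1 was lower. Leaving out 1 replicate at a time gave 2 to 3 higher and 3 to 7 lower cAMP genes, the 3 without replicate 3. Of the other genes 3 to 4 were higher and 7 to 10 lower. Of all genes these fits gave 408 to 590 higher and 253 to 601 lower. RLE, at least 10 counts in every sample, library sizes over all genes and DESeq2 with the block kept every count within 1.5 times, although Akap8l and Pde3a missed the threshold with library sizes over all genes (adjusted p = 0.0114 and 0.011). The 9 genes kept their direction in all fits. Of genes that did not pass, Prkar1a turned to 0.005 in both DESeq2 fits and 0.003 with library sizes over all genes, and without single replicates Adcy1 ranged from -0.260 to 0.245, Adcy5 from -0.328 to 0.037, Creb1 from -0.143 to 0.032, Creb3l2 from -0.212 to 0.149 and Prkar1a from -0.006 to 0.004. With 3 pairs, small changes of genes near the floor could not be resolved.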
